A study of Mus musculus with 6 samples.

Results

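The proteasome is the protease complex that degrades ubiquitin-tagged proteins in the cytosol and nucleus, and its subunit genes were followed here in sorted heart cells after pressure overload. Members were the genes whose symbol begins with Psma, Psmb, Psmc or Psmd and a number, or is Psme1, Psme2, Psme3 or Psme4. The rule found 43 of the 26458 gene symbols in the table. Of these, 41 passed the filter on low counts and were tested among 12612 genes. Psma8 and Psmc3ip did not pass it. Psmc3ip met the rule by its spelling alone: it encodes a cofactor of meiotic recombination and is no proteasome subunit.

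All 6 libraries came from Thy1+HE- cells, which were sorted in 2 rounds from C57BL/6 mouse hearts 7 days after surgery. In 3 of them the mice had a sham operation, and in 3 they had transaortic constriction (TAC), a narrowing of the aorta that raises the pressure load on the left ventricle. Thy1 is a surface protein of many cardiac fibroblasts, and the labels do not spell out HE, so the 2 groups share this sort and differ in the operation. The labels give no age, and do not say whether a library holds 1 animal or a pool, and every p-value here is therefore about library-to-library spread alone, part of which may be technical.

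The counts on gene rows summed to between 1909337 and 2056097 in the sham libraries and between 3351479 and 4207312 in the TAC libraries, so the TAC group was the more deeply counted. Levels are given in CPM, counts scaled to equal library size with TMM factors. A floor of 3 counts was worth 0.699 to 1.55 CPM, depending on the library, and covers counting error only. Of 8 fibroblast markers, all were tested, and their summed level was between 17174 and 22146 CPM in sham and between 21310 and 24541 CPM in TAC. They did not move together: Col1a1 and Col1a2, the genes of type I collagen, were higher in TAC (log2 fold changes of 1.61 and 1.45), and Pdgfra (-0.80), Dcn (-0.67), Ddr2 (-0.78) and Tcf21 (-0.98) were lower, each at an edgeR adjusted p under 0.05. The summed level of 19 leukocyte markers was 66.1, 16.1 and 16.4 CPM in sham replicates 1, 2 and 3, and 78.8, 86.4 and 249.9 CPM in TAC replicates 1, 2 and 3. Ptprc, which encodes the leukocyte surface protein CD45, was at 0 in all sham libraries and at 2.15, 2.10 and 5.11 CPM in TAC. 7 of the 19 leukocyte markers had no count in any sham library and 2 had none in any TAC library. Summed markers of pericytes were at 2830, 2588 and 4085 CPM in sham and at 2223, 1919 and 961 CPM in TAC. Those of endothelial cells lay between 17.5 and 67.5 CPM in sham and between 40.5 and 69.8 CPM in TAC, and those of cardiomyocytes between 90.6 and 235 CPM in sham and between 135 and 330.2 CPM in TAC. In bulk libraries, fewer cells of a type and less RNA per cell cannot be told apart. The part that these other cells have in the results on proteasome genes was not tested.

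A proteasome has a hollow core particle of stacked alpha and beta rings. The alpha rings form the gate, and the beta rings carry the proteolytic sites, which belong to Psmb6 (cleavage after acidic residues), Psmb7 (after basic residues) and Psmb5 (after hydrophobic residues). Interferon induces Psmb9, Psmb10 and Psmb8, which replace these subunits in newly assembled cores to give the immunoproteasome, a form abundant in leukocytes. The regulatory particle binds ubiquitin chains, removes them, and unfolds the substrate with a ring of ATPases. Activators of the Psme genes cap the core in its place. When proteasomes are impaired, the transcription factor Nfe2l1 raises transcription of subunit genes through antioxidant response elements.

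After TAC, 6 subunit genes of the constitutive core were higher, and no member was lower at the threshold. By edgeR's quasi-likelihood test, 6 of the 41 tested members were higher in TAC at an adjusted p under 0.05 and 0 were lower. These shares were 14.6% and 0%, against 8.28% and 10.4% of all tested genes. All of the 6 were alpha or constitutive beta subunits: Psma1, Psma4, Psma5, Psmb1, Psmb2 and Psmb5. At an unadjusted p under 0.05 there were 13 of 41 members and 4149 of 12612 genes, in both directions together. By this measure, which pools the directions, members were no more frequent than genes at large. All 13 of these members had a log2 fold change above 0, and the genes at large were not split by direction. Every TAC library was above every sham library in 18 of 41 members, or 43.9%, against 17.7% of all tested genes. Every TAC library was below every sham library in 2 members, Psmb8 and Psme1, or 4.88%, against 18.5% of all tested genes. The log2 fold change was above 0 in 36 members, or 87.8%, against 50.8% of all tested genes. Its median was 0.39 over the members and 0.01 over all tested genes.

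The calls depended on which libraries were in the fit. The count of 6 stayed at 6 without TAC replicate 1 and was 4 without sham replicate 1. It fell to 0 without sham replicate 2, to 1 without TAC replicate 2, to 2 without TAC replicate 3 and to 2 without sham replicate 3, and DESeq2 called 3. It was 7 with upper quartile scaling and 8 with no low-count filter. Over the whole table the count of genes higher in TAC fell from 1044 to 571 without sham replicate 2. Under all 17 alternatives 30 members kept a log2 fold change above 0 and 5 kept one below 0, while 6 had both signs: Psma2, Psmb9, Psmc1, Psmd1, Psmd11 and Psme4.

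**Figure D1:**
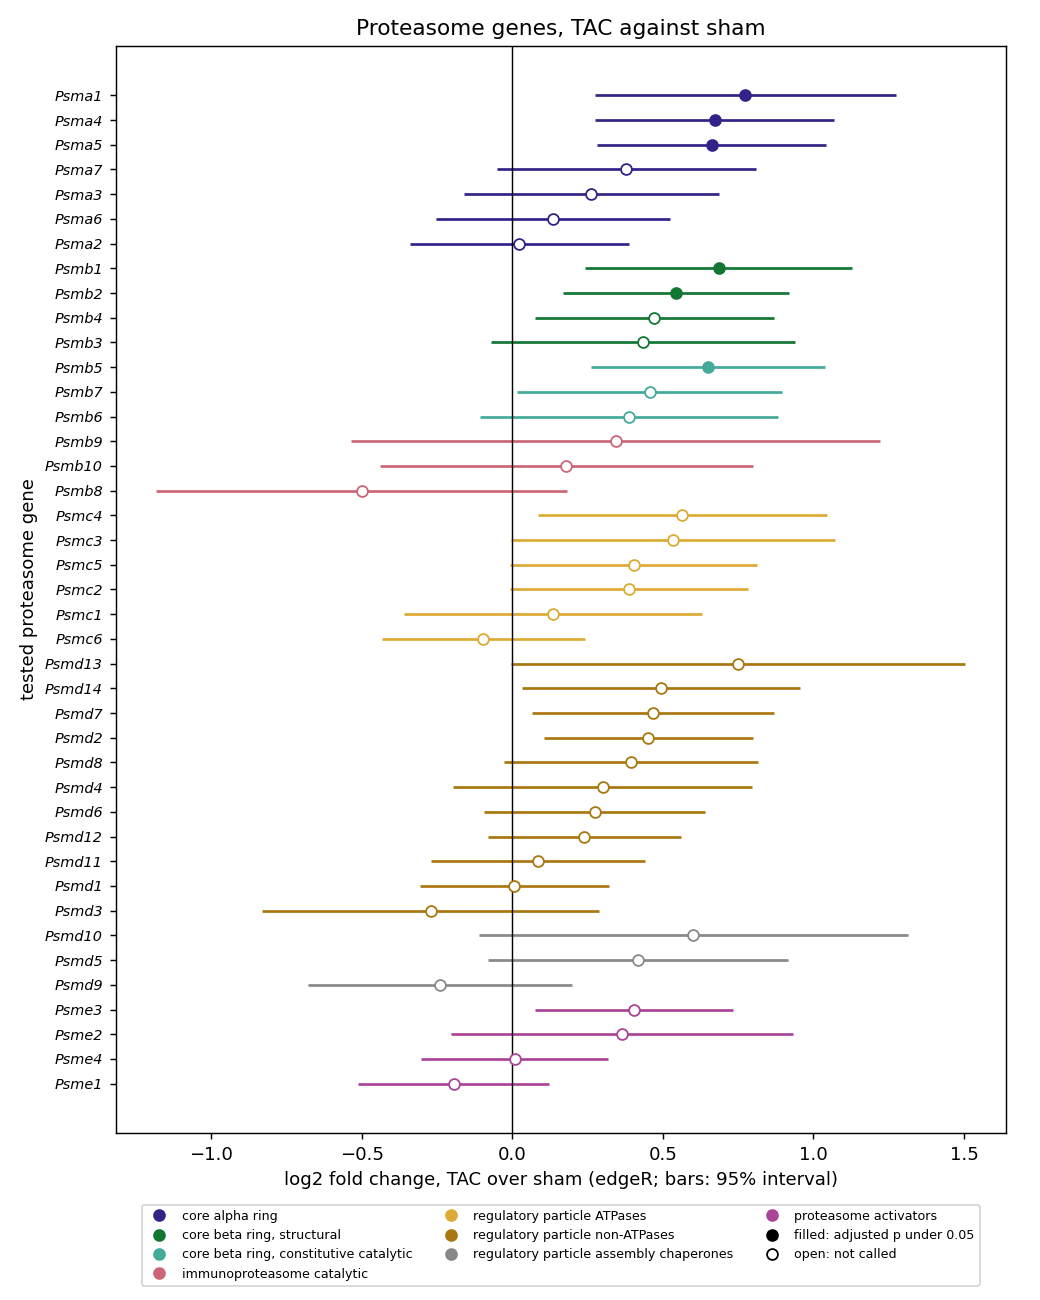
Log2 fold change (TAC against sham, edgeR) of each tested member on the horizontal axis, grouped by subunit class, with bars for the 95% interval and filled points for members at an adjusted p under 0.05. The 6 members past the threshold were all in the alpha ring and the constitutive beta ring, and the 3 immunoproteasome subunits ranged from -0.50 to 0.34.

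The classes stood at different distances from 0, and no test of the difference between classes was made. In the constitutive core, 6 of 14 tested members were higher, all 14 had a log2 fold change above 0, and the median was 0.46. In the regulatory particle, 0 of 17 subunits passed the threshold and 4 had an unadjusted p under 0.05. In it 15 had a log2 fold change above 0, and the median was 0.39. Of all tested genes, 8.28% were higher, 50.8% had a log2 fold change above 0, and 4149 of 12612 had an unadjusted p under 0.05. That last share, of both directions together, was above that of the regulatory particle and below that of the core, where 8 of 14 had such a p. In the core and the regulatory particle, every gene with such a p had a log2 fold change above 0. The 3 immunoproteasome subunits had 0 calls and a median of 0.18 (-0.07 without TAC replicate 3 and 0.34 without sham replicate 1). The 4 activators had 0 calls and a median of 0.19. A count of 6 against 0 does not show that core and regulatory particle responded differently: their medians were 0.46 and 0.39. Within the regulatory particle the median was 0.39 for the ATPases and 0.30 for the non-ATPases.

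In the alpha ring, Psma1, Psma4 and Psma5 rose, and the other 4 tested genes had log2 fold changes from 0.02 to 0.38 that did not pass the test. Psma1 encodes an alpha subunit and lies at chr7:114264550-114276116 on GRCm38. In order of replicate number, as in all values that follow, the sham libraries had 14.0, 12.4 and 19.8 CPM and the TAC libraries 20.6, 27.5 and 31.3 CPM. All TAC libraries were above all sham libraries, although TAC replicate 1 was close to sham replicate 3. The mean went from 15.4 ± 3.90 to 26.4 ± 5.44 CPM (SD, n = 3 each), a log2 fold change of 0.77 ± 0.24 (SE) with a 95% interval from 0.27 to 1.27 and an edgeR adjusted p of 0.0308. Its adjusted p ranged from 0.00515 to 0.143 over the 17 alternatives: it missed the threshold without sham replicate 1 (0.0993), sham replicate 2 (0.143), TAC replicate 2 (0.0802) or TAC replicate 3 (0.0833), and by DESeq2 (0.0580).

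Psma4, another alpha subunit gene, lies at chr9:54950781-54958034. It was at 43.1, 35.2 and 29.3 CPM in sham and at 59.8, 46.3 and 65.9 CPM in TAC. TAC replicate 2 was the lowest of its group and still above sham replicate 1. The mean went from 35.9 ± 6.92 to 57.3 ± 9.99 CPM, a log2 fold change of 0.67 ± 0.19 (SE, adjusted p = 0.0194 by edgeR). Over the alternatives the adjusted p ranged from 0.00163 to 0.0972, with the call lost without sham replicate 2 (0.0793), sham replicate 3 (0.0972) or TAC replicate 3 (0.0551). Its exons share 114 bases with AY074887 on the other strand, and reads from such pairs cannot be told apart in a library that does not mark strand.

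Psma5, the alpha subunit gene at chr3:108256926-108279952, was at 32.0, 26.4 and 23.3 CPM in sham and at 39.6, 43.5 and 46.3 CPM in TAC. The 2 groups were set well apart. The mean went from 27.3 ± 4.42 to 43.1 ± 3.39 CPM, a log2 fold change of 0.66 ± 0.18 (SE, adjusted p = 0.0169 by edgeR). Over the alternatives the adjusted p ranged from 0.00454 to 0.0850, with the call lost without sham replicate 2 (0.0756), sham replicate 3 (0.0850) or TAC replicate 2 (0.0563). 60 bases of its exons overlap the antisense gene 1700010K24Rik.

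The alpha gene with the smallest difference was Psma2, at 36.6, 45.1 and 40.2 CPM in sham and at 35.0, 42.6 and 46.0 CPM in TAC. The groups overlapped completely, and the log2 fold change was 0.02 ± 0.17 with a 95% interval from -0.34 to 0.39 (adjusted p = 0.943 by edgeR). Psma3, Psma6 and Psma7 had log2 fold changes of 0.26, 0.14 and 0.38. Products of the 7 genes occupy the same ring in equal number, and the estimated changes in RNA ran from nearly none to 1.71-fold. No test between these genes was made, and the 95% interval of Psma1 (0.27 to 1.27) overlapped that of Psma2. Psma8, which encodes a testis-specific alpha subunit, had 2 counts in each sham library and 1, 2 and 0 in TAC, all at or under the floor. Psmc3ip had 2, 3 and 2 counts in sham and 7, 9 and 10 in TAC, too few to pass the filter on low counts.

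Because the alpha ring held 3 of the 6 calls, its promoters were searched for CCAAT, the box bound by the factor NF-Y, on both strands. RefSeq windows of GRCm38.p6, from 250 bases before to 50 after the start, were matched for 36 of the 43 members and 27025 genes in all. Those without a window were Psma8, Psmb1, Psmb2, Psmb7, Psmc3, Psmd3 and Psmd7. CCAAT was present in 5 of 7 alpha ring windows, in 14 of 36 members (38.9%) and in 37.9% of all windows, so over all members its share was that of promoters at large. Psma1 carried it on each strand. The stretch upstream of its start is shown, at chr7:114276119-114276366 on the minus strand, with CCAAT or its complement in capitals.
Psma1 promoter: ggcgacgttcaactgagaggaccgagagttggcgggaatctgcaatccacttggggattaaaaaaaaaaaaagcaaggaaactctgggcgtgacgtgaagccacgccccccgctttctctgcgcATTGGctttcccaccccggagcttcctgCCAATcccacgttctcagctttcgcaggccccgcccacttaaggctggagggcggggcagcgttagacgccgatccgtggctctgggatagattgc
Of the 3 alpha genes that rose, Psma1 held these letters in its window, and Psma4 and Psma5 did not. Matches are descriptions of sequence and not of binding.

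**Figure D2:**
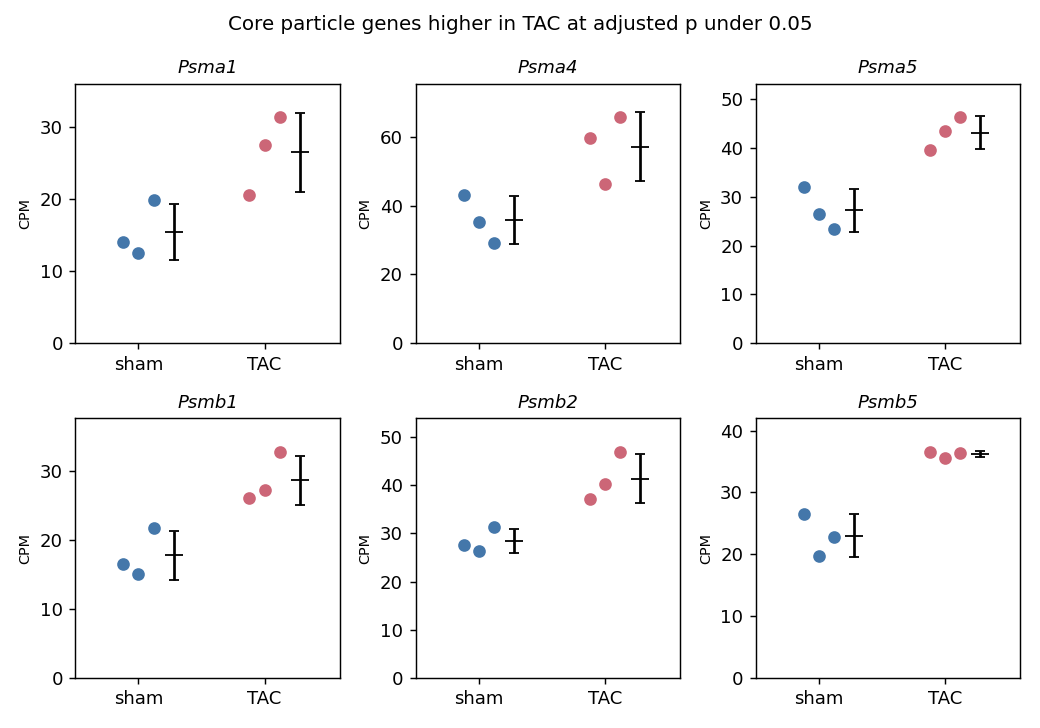
CPM on the vertical axis of the 6 members higher in TAC, with 1 point per library in replicate order and, beside them, the mean with bars of 1 SD (n = 3). Every TAC point lies above every sham point in all 6. The TAC values of Psmb5 have an SD of 0.478 CPM, which is less than counting error at 119, 153 and 121 counts and is no measure of precision.

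Among the structural subunits of the beta ring, which carry no proteolytic site, Psmb1 and Psmb2 rose, and Psmb3 and Psmb4 did not pass the test. Psmb1, at chr17:15475721-15498276, was at 16.5, 15.0 and 21.8 CPM in sham and at 26.1, 27.2 and 32.8 CPM in TAC. Sham replicate 3 and TAC replicate 3 were the highest of their groups, and the groups did not overlap. The mean went from 17.8 ± 3.58 to 28.7 ± 3.58 CPM, a log2 fold change of 0.68 ± 0.21 (SE, adjusted p = 0.0309 by edgeR). Over the alternatives the adjusted p ranged from 0.0113 to 0.141, with the call lost without sham replicate 1 (0.0950), sham replicate 2 (0.141), TAC replicate 2 (0.0605) or TAC replicate 3 (0.0748), and by DESeq2 (0.0714).

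Psmb2, at chr4:126677637-126709715, was at 27.5, 26.4 and 31.3 CPM in sham and at 37.1, 40.3 and 46.9 CPM in TAC. Here too the TAC libraries all stood above the sham libraries. The mean went from 28.4 ± 2.53 to 41.4 ± 4.997 CPM, a log2 fold change of 0.54 ± 0.18 (SE, adjusted p = 0.0422 by edgeR), the smallest of the 6 calls. It was also the least stable, called in 10 of 17 alternatives with adjusted p from 0.0242 to 0.150. The call was lost without sham replicate 1 (0.105), sham replicate 2 (0.150), sham replicate 3 (0.0641), TAC replicate 2 (0.0951) or TAC replicate 3 (0.0962), by DESeq2 (0.0965) and by limma voom (0.0515).

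Psmb3 was at 13.0, 12.4 and 10.4 CPM in sham and at 14.7, 17.7 and 15.9 CPM in TAC, without overlap, and had a log2 fold change of 0.44 ± 0.24 (adjusted p = 0.220 by edgeR). Psmb4 was at 50.6, 37.3 and 30.3 CPM in sham and at 51.5, 50.5 and 61.9 CPM in TAC. Its sham replicate 1 reached the level of TAC, and the log2 fold change was 0.47 ± 0.19 (adjusted p = 0.0910 by edgeR). Without sham replicate 1 it passed the threshold (adjusted p = 0.0289, range over the alternatives 0.0289 to 0.343).

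Of the 3 constitutive catalytic subunits, Psmb5 rose, while Psmb6 and Psmb7 had positive log2 fold changes that did not pass. Their levels are given in RPKM, the deposited value per kilobase of gene length, so that genes can be set against each other. Psmb5, the chymotrypsin-like subunit at chr14:54614120-54617995, was at 29.9, 23.2 and 26.5 RPKM in sham and at 40.6, 42.2 and 42.0 RPKM in TAC. The TAC libraries were nearly equal and far above the highest sham library. At 119, 153 and 121 counts they lay closer together than counting error alone would usually leave them. Their closeness is therefore no measure of precision. The mean went from 26.5 ± 3.39 to 41.6 ± 0.873 RPKM, and in the fit on counts the log2 fold change was 0.65 ± 0.18 with a 95% interval from 0.26 to 1.04 (SE, adjusted p = 0.0207 by edgeR). Over the alternatives the adjusted p ranged from 0.00904 to 0.112, with the call lost without sham replicate 2 (0.112), sham replicate 3 (0.0641) or TAC replicate 2 (0.0581). Its row shares 109 exon bases with the microRNA gene Mir686.

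Psmb6, the caspase-like subunit at chr11:70525324-70527858, was at 33.9, 34.5 and 17.3 RPKM in sham and at 33.4, 36.2 and 42.4 RPKM in TAC. Only sham replicate 3 was low, and the groups overlapped. The log2 fold change in the fit on counts was 0.39 ± 0.23 with a 95% interval from -0.11 to 0.88 (adjusted p = 0.265 by edgeR), and it was 0.12 without sham replicate 3. Psmb7, the trypsin-like subunit at chr2:38588046-38643952, was at 31.0, 27.9 and 18.6 RPKM in sham and at 33.1, 33.0 and 40.2 RPKM in TAC. The TAC libraries lay above the sham libraries by a narrow margin, and the log2 fold change was 0.46 ± 0.21 with a 95% interval from 0.02 to 0.90 (adjusted p = 0.137 by edgeR). Sham replicate 3 was again the lowest library. 405 exon bases of Psmb7 overlap Nek6 on the other strand. The summed level of the 3 subunits was 94.8, 85.6 and 62.4 RPKM in sham and 107.1, 111.4 and 124.6 RPKM in TAC.

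The promoters of Psmb5 and Psmb6 are shown because both hold the core of the antioxidant response element, TGACNNNGC, through which Nfe2l1 and Nfe2l2 act. The core was found on either strand in 6 of 36 member windows (16.7%) and in 12.5% of all 27025 windows. The others were those of Psmc6, Psmd9, Psmd12 and Psme4, and none was in the alpha ring. In Psmb5 it lay from -47 to -39 relative to the start, and in Psmb6 from -9 to -1. The Psmb5 stretch is chr14:54618023-54618245 on the minus strand and the Psmb6 stretch is chr11:70525107-70525356 on the plus strand, with the core in capitals.
Psmb5 promoter: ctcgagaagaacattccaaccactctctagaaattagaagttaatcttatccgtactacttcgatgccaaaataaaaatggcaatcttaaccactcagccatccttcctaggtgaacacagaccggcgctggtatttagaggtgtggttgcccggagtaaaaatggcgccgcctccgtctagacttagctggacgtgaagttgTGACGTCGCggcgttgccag
Psmb6 promoter: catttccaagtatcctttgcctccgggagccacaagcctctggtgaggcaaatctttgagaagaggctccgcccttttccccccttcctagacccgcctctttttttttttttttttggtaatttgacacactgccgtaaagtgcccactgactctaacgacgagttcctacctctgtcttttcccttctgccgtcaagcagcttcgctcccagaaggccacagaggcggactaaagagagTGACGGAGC
Of the 6 members with this core, Psmb5 was called higher in TAC, and the others were not called. Of the 6 called members, Psmb1 and Psmb2 had no window to search, and neither had Psmb7. Psmc6 and Psmd9 had log2 fold changes below 0.

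**Figure D3:**
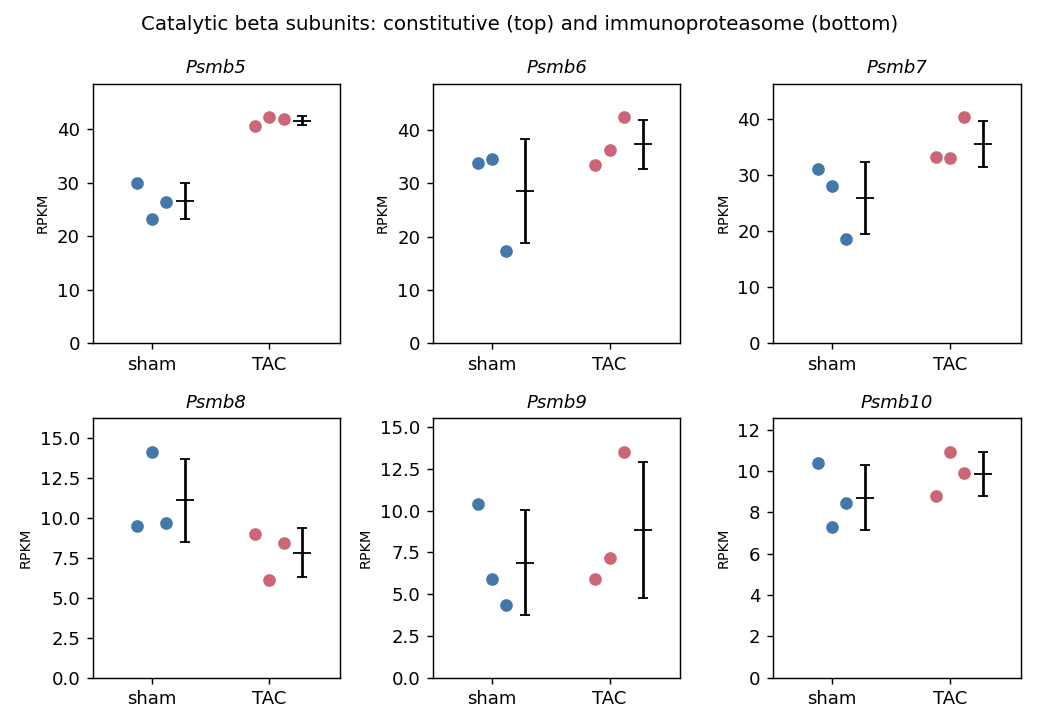
Deposited RPKM on the vertical axis of the constitutive catalytic subunits (top) and, under each, the immunoproteasome subunit that replaces it (bottom), with 1 point per library in replicate order and the mean with bars of 1 SD (n = 3). Psmb5 is at 40.6 to 42.2 in TAC against 23.2 to 29.9 in sham, whereas Psmb8 is at 6.1 to 8.97 in TAC against 9.51 to 14.1 in sham.

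The immunoproteasome subunits were expressed at a lower level than the constitutive ones, and none of the 3 passed the test in either direction. Psmb8, which replaces Psmb5, lies at chr17:34198195-34201454. It was at 9.51, 14.1 and 9.69 RPKM in sham and at 8.97, 6.10 and 8.39 RPKM in TAC, from between 16 and 25 counts per library. Every TAC library was below every sham library, the reverse of Psmb5, but TAC replicate 1 was within 1 RPKM of sham replicate 1. The mean was 11.1 ± 2.60 RPKM in sham and 7.82 ± 1.52 RPKM in TAC, and the log2 fold change in the fit on counts was -0.50 ± 0.32 with a 95% interval from -1.18 to 0.18 (adjusted p = 0.303 by edgeR). No alternative called it. 186 bases of its exons overlap the antisense gene Gm20496.

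Psmb9, which replaces Psmb6, lies at chr17:34182030-34187330. It was at 10.4, 5.93 and 4.35 RPKM in sham and at 5.90, 7.16 and 13.5 RPKM in TAC. The groups overlapped, with the highest values in sham replicate 1 and TAC replicate 3. These were also the libraries with the highest summed leukocyte markers of their groups. Of the 66.1 CPM of these markers in sham replicate 1, 36.6 CPM were Lyz2. Psmb8 was highest in sham replicate 2 and TAC replicate 1, and Psmb10 in sham replicate 1 and TAC replicate 2. The part of leukocytes in these values was not tested. The log2 fold change was 0.34 ± 0.42 with a 95% interval from -0.54 to 1.22 (adjusted p = 0.607 by edgeR), and without TAC replicate 3 it was -0.07. Psmb9 shares 212 exon bases with Tap1, the peptide transporter gene transcribed from the other strand.

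Psmb10, which replaces Psmb7, lies at chr8:105935728-105938392. It was at 10.4, 7.29 and 8.47 RPKM in sham and at 8.79, 10.9 and 9.89 RPKM in TAC, with overlap, and had a log2 fold change of 0.18 ± 0.29 with a 95% interval from -0.44 to 0.80 (adjusted p = 0.714 by edgeR). Summed over the 3 genes, the level was 30.3, 27.3 and 22.5 RPKM in sham and 23.7, 24.2 and 31.8 RPKM in TAC. The mean was thus 26.7 ± 3.92 RPKM in sham and 26.5 ± 4.55 RPKM in TAC, while that of the constitutive catalytic genes went from 80.9 ± 16.7 to 114.4 ± 9.11 RPKM.

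The level of each immunoproteasome subunit was set against the subunit it replaces within each library, with 3 ratios tested. The ratio of Psmb8 to Psmb5 was 0.318, 0.609 and 0.366 in sham and 0.221, 0.144 and 0.200 in TAC. It was lower in every TAC library than in any sham library. The log2 ratio differed by -1.16 between the group means (-1.27 ± 0.49 in sham, -2.43 ± 0.32 in TAC, SD), with a two-sided exact permutation p of 0.1, the smallest that 3 against 3 libraries can give, and an adjusted p of 0.3 over the 3 ratios. Its range without each library in turn was -1.35 to -0.88. Since Psmb5 rose and Psmb8 had a negative log2 fold change, both parts of the ratio moved it the same way.

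The ratio of Psmb9 to Psmb6 was 0.306, 0.172 and 0.252 in sham and 0.177, 0.198 and 0.318 in TAC, a difference of -0.08 in log2 (exact permutation p = 1). Its direction turned without sham replicate 1 (0.10), TAC replicate 1 (0.08) or TAC replicate 2 (0.0037). The ratio of Psmb10 to Psmb7 was 0.336, 0.261 and 0.455 in sham and 0.265, 0.331 and 0.246 in TAC, a difference of -0.29 (exact permutation p = 0.4, adjusted 0.6). For both of these pairs the groups overlapped. The constitutive subunit was the more abundant of the pair in every library for all 3 pairs.

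The immunoproteasome promoters were searched for the letters of interferon response sites on both strands. The core of the gamma-activated site, TTCNNNGAA, was found in the windows of Psmb8 and Psmd2, or 2 of 36 members (5.56%) against 8.47% of all windows. In Psmb8 it lay from -97 to -89. The site is shown with its flanks, chr17:34198089-34198115 on the plus strand, because Psmb8 had the most negative log2 fold change of the tested members. An exon of another annotated Psmb8 transcript covers this stretch. The capitals mark the core.
Psmb8 site: cctccgctgTTCCCAGAAgatgccccc
The interferon-stimulated response element core, read as GAAA, any 2 bases and GAAA, was in 4 of 36 member windows (11.1%) against 3.49% of all windows. These were Psmb3, Psmd4, Psmd9 and Psme1, and none of the 3 immunoproteasome windows held it. Matches of the 4 motifs were counted separately, also where they overlap.

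In the regulatory particle no subunit passed the threshold, and the 6 ATPases, which form its unfolding ring, had log2 fold changes from -0.10 to 0.56 with a median of 0.39 (0.25 without TAC replicate 3). Psmc4 was the highest, at 13.0, 13.5 and 19.3 CPM in sham and at 24.5, 19.3 and 24.4 CPM in TAC. Sham replicate 3 reached the lowest TAC library. Its log2 fold change was 0.56 ± 0.23 with a 95% interval from 0.08 to 1.04 (adjusted p = 0.0942 by edgeR). Psmc6 was the lowest, at 38.6, 42.0 and 41.2 CPM in sham and at 39.6, 37.0 and 37.3 CPM in TAC. All of its values lay within a narrow band, and the log2 fold change was -0.10 ± 0.16 with a 95% interval from -0.43 to 0.24 (adjusted p = 0.719 by edgeR). Psmc2, Psmc3 and Psmc5 each had all TAC libraries above all sham libraries, with log2 fold changes of 0.39, 0.53 and 0.40 and edgeR adjusted p of 0.161, 0.156 and 0.159. Psmc1 overlapped, at 0.14.

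The 11 non-ATPase subunits, which form the lid and the base scaffold, had log2 fold changes from -0.27 to 0.75 with a median of 0.30. Psmd13, a lid subunit, had the highest: it was at 10.5, 7.77 and 5.95 CPM in sham and at 8.59, 11.4 and 21.0 CPM in TAC. TAC replicate 1 lay within the sham range, TAC replicate 2 just above it and TAC replicate 3 far above it. The log2 fold change was 0.75 ± 0.36 (adjusted p = 0.154 by edgeR) and 0.32 without TAC replicate 3. Its 152 exon bases shared with Sirt3 on the other strand add uncertainty to it. Psmd3, another lid subunit, had the lowest, at 14.0, 19.7 and 10.9 CPM in sham and at 13.2, 12.8 and 10.8 CPM in TAC. Sham replicate 2 was the highest of these, and the log2 fold change was -0.27 ± 0.26 with a 95% interval from -0.83 to 0.29 (adjusted p = 0.515 by edgeR). Without sham replicate 2 it was -0.03.

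Psmd2, a scaffold subunit of the base, came nearest to the threshold, at 33.0, 35.2 and 38.7 CPM in sham and at 50.003, 44.01 and 52.6 CPM in TAC. The groups did not overlap. The log2 fold change was 0.45 ± 0.16 (adjusted p = 0.0660 by edgeR, from 0.0436 to 0.172 over the alternatives), and upper quartile scaling put it past the threshold. Its partner in the scaffold, Psmd1, was at 100.1, 100.5 and 107.6 CPM in sham and at 119.0, 105.5 and 85.1 CPM in TAC, a log2 fold change of 0.01 ± 0.15 (adjusted p = 0.982 by edgeR). Psmd14, the deubiquitinase that cuts off the ubiquitin chain, had a log2 fold change of 0.49 ± 0.22 (adjusted p = 0.126 by edgeR), and its lid partner Psmd7 one of 0.47 ± 0.19 (adjusted p = 0.0972 by edgeR). Psmd4, a receptor for ubiquitin chains, had one of 0.30. Psmd6, Psmd8, Psmd11 and Psmd12 lay between 0.08 and 0.39. The summed level of the 11 genes was 195.8, 210.4 and 210.6 RPKM in sham and 242.8, 237.6 and 261.8 RPKM in TAC.

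Psmd5, Psmd9 and Psmd10 encode chaperones that assemble the base and leave the finished particle. Psmd10 was at 8.51, 5.70 and 4.47 CPM in sham and at 12.0, 7.92 and 8.72 CPM in TAC, with overlap, and a log2 fold change of 0.60 ± 0.34 (adjusted p = 0.231 by edgeR). Psmd9 was at 17.5, 21.8 and 21.8 CPM in sham and at 16.3, 17.9 and 17.4 CPM in TAC, a log2 fold change of -0.24 ± 0.21 (adjusted p = 0.453 by edgeR). Psmd5 had all TAC libraries above all sham libraries and a log2 fold change of 0.42 (adjusted p = 0.234 by edgeR). None of the 3 chaperones passed the threshold.

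The 4 activators did not share a direction and none passed the threshold. Psme1 and Psme2 encode the subunits of the interferon-inducible ring that caps cores in the cytosol. Psme1, at chr14:55578494-55581527, was at 57.6, 51.3 and 50.6 CPM in sham and at 47.2, 44.9 and 47.2 CPM in TAC. Every TAC library was below every sham library. The mean was 53.2 ± 3.85 CPM in sham and 46.5 ± 1.32 CPM in TAC, a log2 fold change of -0.20 ± 0.15 with a 95% interval from -0.51 to 0.12 (adjusted p = 0.396 by edgeR). Psme2, its partner in the same ring, was at 11.02, 11.4 and 7.44 CPM in sham and at 12.9, 12.3 and 13.2 CPM in TAC. Every TAC library was above every sham library, the opposite order to Psme1, and the log2 fold change was 0.36 ± 0.27 with a 95% interval from -0.20 to 0.93 (adjusted p = 0.371 by edgeR).

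Psme3 encodes the nuclear activator, which is not induced by interferon. It was at 42.6, 49.2 and 46.6 CPM in sham and at 53.7, 62.4 and 67.1 CPM in TAC, and no library crossed between the groups. The mean was 46.1 ± 3.35 CPM in sham and 61.0 ± 6.79 CPM in TAC, a log2 fold change of 0.40 ± 0.16 with a 95% interval from 0.08 to 0.73. The edgeR adjusted p was 0.0801 and lay between 0.0531 and 0.208 over the alternatives. Psme4, a large single-chain activator, was at 120.7, 109.3 and 133.4 CPM in sham and at 140.2, 120.8 and 104.6 CPM in TAC. These overlapped fully, with a log2 fold change of 0.01 ± 0.15 and a 95% interval from -0.30 to 0.32 (adjusted p = 0.976 by edgeR).

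**Figure D4:**
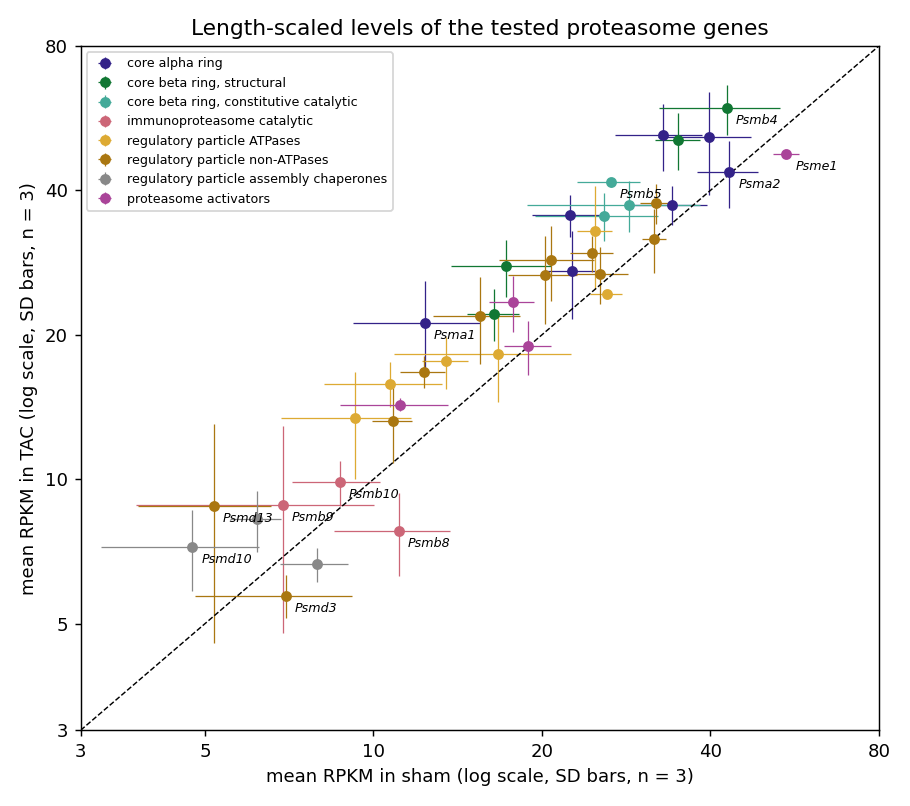
Mean deposited RPKM of each tested member in sham (horizontal, log axis) against TAC (vertical, log axis), coloured by class, with bars of 1 SD (n = 3) and a dashed line of equality. Constitutive core subunits lie above the line, some of them within their SD, and the immunoproteasome subunits lie at the low end, between 6.89 and 11.1 RPKM in sham.

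The members differed widely in RNA level per kilobase. In sham the highest mean level of the 43 members was that of Psme1, 54.7 ± 2.90 RPKM, followed by Psma2 at 43.2 ± 5.42, Psmb4 at 42.8 ± 10.4 and Psma7 at 39.8 ± 7.55 RPKM. The last 3 did not differ beyond their spread. In TAC, Psmb4 was the highest at 59.4 ± 7.10 RPKM, Psma4 followed at 52.3 ± 8.38, Psma7 at 51.7 ± 12.5 and Psmb2 at 51.0 ± 6.85 RPKM, again within their spread, and Psme1 came after them at 47.6 ± 0.860 RPKM. The lowest tested members in sham were the chaperone gene Psmd10 at 4.75 ± 1.49 and Psmd13 at 5.18 ± 1.38 RPKM. Within the alpha ring, Psma1 was at 12.4 ± 3.15 RPKM in sham, well under Psma2.

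Genes that act beside the proteasome were read from 6 lists of the pathway that hold 66 symbols. Of these, 64 had a row and 62 were tested: 3 were higher in TAC and 8 were lower, or 4.84% and 12.9%, against 8.28% and 10.4% of all tested genes. The 5 tested assembly and inhibitor genes had 0 calls. Pomp, the chaperone that matures the core, was at 57.2 ± 11.5 CPM in sham and 62.4 ± 3.78 CPM in TAC, a log2 fold change of 0.13 (adjusted p = 0.634 by edgeR). Psmf1, an inhibitor of the core, was at 15.0, 16.6 and 16.9 CPM in sham and at 14.1, 11.9 and 12.6 CPM in TAC, a log2 fold change of -0.33 ± 0.23 (adjusted p = 0.342 by edgeR). The 13 ubiquitin and shuttle factor genes had 0 calls and a median log2 fold change of 0.15.

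Of 10 genes for proteins bound to the proteasome, 1 fell, or 10% against 10.4% of all tested genes. It was Zfand5, which encodes a zinc finger protein that stimulates the proteasome. Zfand5 was at 209.8, 193.7 and 193.5 CPM in sham and at 149.7, 126.9 and 123.0 CPM in TAC. The groups were well apart, and its log2 fold change was -0.58 ± 0.13 (adjusted p = 0.00639 by edgeR), and it was called in all 17 alternatives. Among 8 regulators of proteasome genes, 1 rose and 2 fell, or 12.5% and 25%, against 8.28% and 10.4% of all tested genes. Nfe2l1 was at 199.4 ± 2.69 CPM in sham and at 196.0 ± 10.01 CPM in TAC, a log2 fold change of -0.02 ± 0.13 with a 95% interval from -0.29 to 0.24 (adjusted p = 0.915 by edgeR). Nfe2l2, which encodes its stress-activated relative, was at 342.7 ± 50.3 CPM in sham and at 276.6 ± 33.4 CPM in TAC, and its log2 fold change was -0.31 ± 0.15 (adjusted p = 0.149 by edgeR).

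Small Maf proteins pair with these factors on the antioxidant response element. Mafk fell, from 125.2, 143.0 and 120.5 CPM in sham to 65.3, 54.3 and 73.4 CPM in TAC, a log2 fold change of -1.01 ± 0.15 (adjusted p = 0.000179 by edgeR). Maff fell by 0.68 on the log2 scale (adjusted p = 0.00810 by edgeR, and 0.0512 without TAC replicate 2). Keap1, which marks Nfe2l2 for degradation, was at 6.51, 4.14 and 5.95 CPM in sham and at 6.75, 11.9 and 29.2 CPM in TAC. TAC replicate 3 carried most of the difference: the log2 fold change was 1.51 ± 0.47 (adjusted p = 0.0337 by edgeR) and 0.77 without that library (adjusted p = 0.177). It was called in 9 of 17 alternatives, and the call was also lost without sham replicate 1 (0.0705), sham replicate 2 (0.132) or sham replicate 3 (0.0721).

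Of 15 tested interferon regulators, 1 rose and 5 fell, or 6.67% and 33.3%, against 8.28% and 10.4% of all tested genes. Their median log2 fold change was -0.37. Irf1, the factor that drives the immunoproteasome genes, was at 75.6, 50.8 and 65.0 CPM in sham and at 38.3, 35.6 and 31.0 CPM in TAC. All TAC libraries were lower, and Irf1 fell by 0.87 on the log2 scale (SE 0.17, adjusted p = 0.00255 by edgeR), a call kept in all 17 alternatives. Stat2 and Irf9 (given in the files as Isgf3g), which form the factor of type I interferon signalling, fell by 0.70 and by 0.84 (adjusted p = 0.00306 and 0.00313 by edgeR). Irf8, a factor of myeloid cells, fell by 0.81 (adjusted p = 0.0233 by edgeR), while the summed leukocyte markers were higher in TAC. The Irf8 call was lost without sham replicate 1 (0.0941), sham replicate 3 (0.0600), TAC replicate 2 (0.0844) or TAC replicate 3 (0.0658).

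Jak2, a kinase of the interferon gamma receptor, fell by 0.46 (adjusted p = 0.0438 by edgeR) and was called in 7 of 17 alternatives. That call was lost without sham replicate 1 (0.164), sham replicate 2 (0.106), TAC replicate 1 (0.0536) or TAC replicate 2 (0.187). Ifngr2, a chain of that receptor, rose, from 31.5, 27.97 and 31.3 CPM in sham to 51.8, 44.7 and 46.9 CPM in TAC, a log2 fold change of 0.66 ± 0.17 (adjusted p = 0.0113 by edgeR, and 0.0644 without sham replicate 2). Nlrc5, the activator of class I genes (given as AI451557), was too low to test, at 0.850 ± 0.610 CPM in sham and 1.07 ± 0.662 CPM in TAC.

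**Figure D5:**
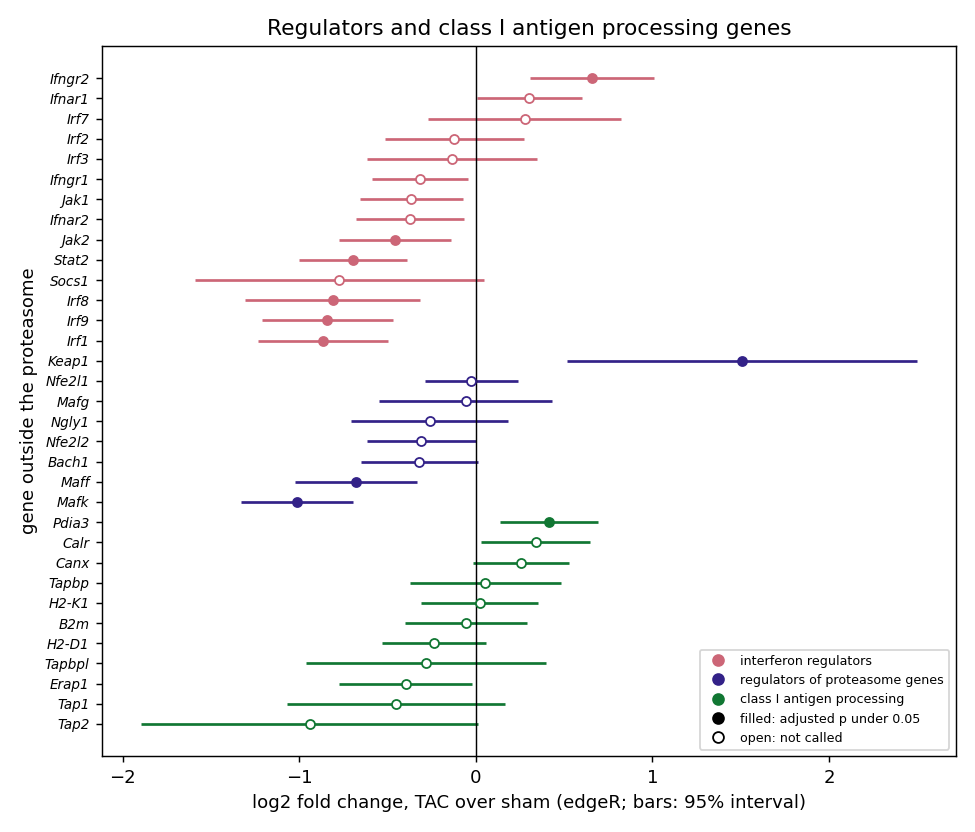
Log2 fold change (TAC against sham, edgeR) on the horizontal axis of tested interferon regulators, regulators of proteasome genes and class I genes, with bars for the 95% interval and filled points for an adjusted p under 0.05. Irf1 at -0.87 and Mafk at -1.01 lie below 0 with their intervals, Nfe2l1 lies at -0.02, and Keap1 at 1.51 has the widest interval of the called genes shown.

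Of 11 genes of class I antigen processing, which use the peptides that proteasomes release, 1 was called higher and 0 lower. These shares were 9.09% and 0%, against 8.28% and 10.4% of all tested genes. Pdia3, a folding enzyme of the loading complex and of the endoplasmic reticulum at large, rose by 0.41 (SE 0.13, adjusted p = 0.0354 by edgeR). Its call was lost without sham replicate 1 (0.0522), sham replicate 2 (0.124), sham replicate 3 (0.136), TAC replicate 1 (0.0961) or TAC replicate 2 (0.0857). Tap1 was at 10.5, 13.0 and 23.3 CPM in sham and at 10.1, 11.2 and 12.9 CPM in TAC, a log2 fold change of -0.45 ± 0.29 (adjusted p = 0.304 by edgeR) and of -0.04 without sham replicate 3, the highest library. B2m, the light chain of class I molecules, had a log2 fold change of -0.06 (adjusted p = 0.849 by edgeR).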

How the data were processed

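RNA from 3 sham and 3 TAC libraries of sorted heart cells was sequenced, and each library has 1 deposited report. Per the file headers, NextGENe 2.3.3 produced the authors' counts of reads on each gene, which are whole and not normalized. The RPKM values in the same deposited reports were computed by the authors from those counts and each gene's length. The submitters' processing notes name mm10 and Partek 6.6, without a role. The handling of reads that match several places is not stated in the sources used here, so reads of subunit genes with pseudogenes or near-identical copies may be split between them. The library kit does not mark strand, per the labels' protocols, and 12 members share exon bases with another gene in GENCODE M21.

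Rows of the same symbol were summed. Genes were kept with filterByExpr of edgeR 4.0.16 in R 4.3.3, scaled by TMM and compared by a two-sided edgeR quasi-likelihood test, adjusted by the Benjamini-Hochberg method over all 12612 genes and calls at an adjusted p under 0.05. Standard errors were derived from the F statistic, and intervals are at 95%. Ratios of RPKM were compared by exact permutation tests. The steps were tested on simulated data. Alternatives were DESeq2 1.42.0, limma 3.58.1 (voom, and log2 of RPKM with pseudocounts of 1 and 0.1), other scalings and filters, the omission of each library in turn, a replicate block and a robust dispersion fit. Medians of classes under these were added after the data were seen.

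Named genes were the 10 catalytic and activator genes, every called member, the highest and lowest of each class, and from 6 pathway lists every called gene and 9 regulators, of which 1 is not reported here. Other members were added for their role after their values were seen. The members and lists were chosen with earlier results of these data known. Coordinates and promoters are from RefSeq on GRCm38.p6, the assembly that mm10 names. 9 list symbols were matched through a synonym, and Psmg4 and Paaf1 matched no row.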

Additional observations from a re-analysis of the deposited data

How the results depend on the processing

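Across 17 alternatives for each of 41 members, 645 of 697 values kept their direction and their side of the threshold, 26 lost a call, 4 gained one, and 22 turned in sign, all of them in 6 members that were not called and none with a call in the opposite direction. The count of members higher in TAC was 6, fell to 3 by DESeq2, was 5 by limma voom, 7 with upper quartile scaling and 8 with no low-count filter, and lay between 0 and 6 when 1 library was left out. The count lower in TAC was 0 in all of these. The median log2 fold change of the immunoproteasome genes turned to -0.07 without TAC replicate 3 and was 0.34 without sham replicate 1. Outside the rule, 3 genes were higher and 8 lower, with ranges of 0 to 2 and 5 to 9 when 1 library was left out. Over the whole table, 1044 genes were higher; this became 1579 with no low-count filter, 571 without sham replicate 2 and 683 without sham replicate 3. The log2 ratio of Psmb9 to Psmb6 ranged from -0.34 to 0.10 when 1 library was left out, with values of 0.10217, 0.084598 and 0.0037138 in the opposite direction to the full data. The cause of these changes was not tested. The median of all tested genes moved between -0.00090 and 0.0747.

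Libraries with the same replicate number did not deviate together (correlations 0.08, 0.03 and -0.09), and not every library correlated best with its own number. These values gave no sign that the numbers pair the libraries. Whether they were paired by design cannot be told from 3 libraries per group. With a replicate block, 6 members were higher and 0 lower, 3 and 7 genes outside the rule were higher and lower, and 1029 and 1317 genes over the whole table. Within number pairs, the exact p of the ratios was 0.25, 1 and 0.75. For 3 pairs, 0.25 is the smallest p that this test can give. Jak2 was the gene outside the rule that lost its call under the block (adjusted p = 0.0539). The counts of the immunoproteasome genes were between 7 and 43 per library. The part of depth in their lack of calls was not tested.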

Other observations

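Among the 41 tested members, TAC replicate 3 was the highest TAC library in 24 (58.5%), against 39.1% of all tested genes. Sham replicate 1 was the highest sham library in 17 members (41.5%), against 34.5% of all tested genes. TAC replicate 3 was also the library with the highest summed leukocyte markers (249.9 CPM) and the lowest summed pericyte markers (961 CPM). The part these values have in the results was not tested.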
